A study of Arabidopsis thaliana with 10 samples.

Results

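Rosettes of abi4-102 were compared with rosettes of the Arabidopsis thaliana wild type Col 0 on single-colour oligonucleotide arrays. The comparison rests on 6 arrays chosen by their titles, 3 of abi4-102 and 3 of Col 0, out of 10 in the series. The other 4 arrays hold rosettes of vtc1, a line named for a gene of ascorbate synthesis. They share in the estimate of spread and serve as a second line against which abi4-102 was set. All rosettes were 42 days old, grown on compost under short days in 1 set of controlled conditions, harvested whole and frozen. No treatment separated the groups, and genotype is the only factor the labels give. The labels say neither what lesion abi4-102 carries nor whether a replicate was a single plant or a pool, so the p-values reflect only how far these samples lay apart. In whole rosettes, fewer cells of a type and less RNA per cell cannot be told apart.

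ABI4 (ABSCISIC ACID INSENSITIVE 4) encodes a transcription factor of the AP2/ERF family. It is best known from seeds and seedlings, where its mutants respond weakly to abscisic acid and to sugars, and it has been placed in signalling from chloroplasts to the nucleus. In leaves it has been studied together with ascorbate, hormone and defence responses. The description below therefore runs from the chloroplast and carbohydrate genes through protein turnover, membranes and the nucleus to hormones, defence and the cell wall. Neither ABI4 nor VTC1 is the sole gene of any probe set in the platform annotation, so the genotype labels were not checked through the transcripts of those genes.

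Values are the deposited linear intensities, converted to log2(value + 1), so a log2 change understates the change of dim genes. Median intensity was 42.6 to 44.4 on the abi4-102 arrays and 43.1 to 43.7 on the wild-type arrays. Replicates correlated at 0.997 to 0.998 over all probe sets within abi4-102 and at 0.998 within wild type, and abi4-102 with wild-type arrays at 0.987 to 0.988. No pair of arrays held identical values. The leaf photosynthetic markers were bright on every array, with 0 of 6 at the level of the control probe sets, and summed to 26702 to 28402 in abi4-102 against 30756 to 31260 in wild type. Seed markers were at the control level in both groups for 4 of 4 genes and reproductive markers for 10 of 13. The control pairs that compare the 3' and 5' ends of a transcript, a sign of RNA integrity, did not overlap for GAPDH, at 0.90, 0.94 and 0.98 (log2) in abi4-102 against 1.59, 1.02 and 1.198 in wild type. The actin pair of the second control set stood at 1.36, 1.56 and 1.53 in abi4-102, against 2.102, 1.69 and 1.70 in wild type, while the other actin and GAPDH pairs overlapped between the groups. The number of arrays limits the precision.

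A gene was called where its limma p-value, adjusted over 22746 probe sets, was under 0.05. Among 13356 genes with a probe set of their own, 4264 (31.9%) were called in abi4-102 against wild type, 2314 higher (17.3%) and 1950 lower (14.6%). The differences were many and mostly small. Of the called genes, 3250 (76.2%) changed by less than 0.5 on the log2 scale, 843 by 0.5 to 1 and 171 by 1 or more, and the median size was 0.35. At 2-fold or more, 127 genes rose (0.951%) and 44 fell (0.329%), and over all probe sets, named or not, 1.09% rose and 0.334% fell by that much. The arrays of the groups did not overlap for 5394 genes (40.4%). With genes split by brightness into 4 groups of equal size, 4.76% were called in the dimmest group, 21.2% and 48.7% in the middle groups and 53.0% in the brightest. In all, 4571 genes lay at the level of the Bacillus control probe sets in both groups. Of 8138 genes above that level on all arrays of either group, here called detected, 47.3% were called. Among detected genes 26.4% were called higher and 21.0% lower. The share of 31.9% is the background for families counted over all measured members, and 47.3% for those whose members were nearly all detected, such as the plastid-encoded genes (none of 69 at the control level), autophagy (none of 11) and protein folding at the endoplasmic reticulum (none of 14). Family counts also moved when an array was left out. Counts of 1 or 2 members then moved by at most 2, and larger counts that moved by over 1.5 times are given with the array concerned.

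The direction of change followed the length of the gene. A total of 8043 detected nuclear genes was split by genomic span into 10 groups of equal size. In the group with the shortest span (78 to 1153 bases) 34.9% of the genes were called higher and 11.6% lower in abi4-102. In the group with the longest span (4399 to 26499 bases) 5.60% were called higher and 50.6% lower. The median span was 1899 bases for detected genes called higher, 2965 for those called lower and 2299 for those not called. The trend stood on each array: on the log2 scale, relative to the wild-type mean, and with genes in 4 groups by span, the median of the longest group minus that of the shortest came to -0.26, -0.27 and -0.26 on the 3 abi4-102 arrays. It came to 0.16, 0.15, 0.13 and 0.14 on the 4 vtc1 arrays and to -0.042, -0.0069 and 0.051 on the 3 wild-type arrays. Each wild-type array was set against the mean of the other wild-type arrays only. The sign of the trend in abi4-102 was thus opposite to that in vtc1 and outside the range of the wild-type arrays. On the vtc1 arrays the 3' to 5' values for GAPDH were 1.095, 0.73, 0.88 and 0.72. The second-set actin values there were 1.67, 1.56, 1.49 and 1.55. Most of these values lay below wild type, as in abi4-102. Whether RNA integrity bears on the length trend was not tested. Below, the span of a gene family is given where it bears on the counts, together with the counts after the trend of each array with span had been removed, which covers detected nuclear members only and adjusts p-values over detected nuclear probe sets alone. After that removal, chosen after seeing the data, 3799 of the 8043 genes were called (1814 higher, 1985 lower). With that same adjustment and no removal 3986 of them were called (2215 higher, 1771 lower), and with the adjustment over all probe sets 2126 were higher and 1675 lower.

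**Figure D1:**
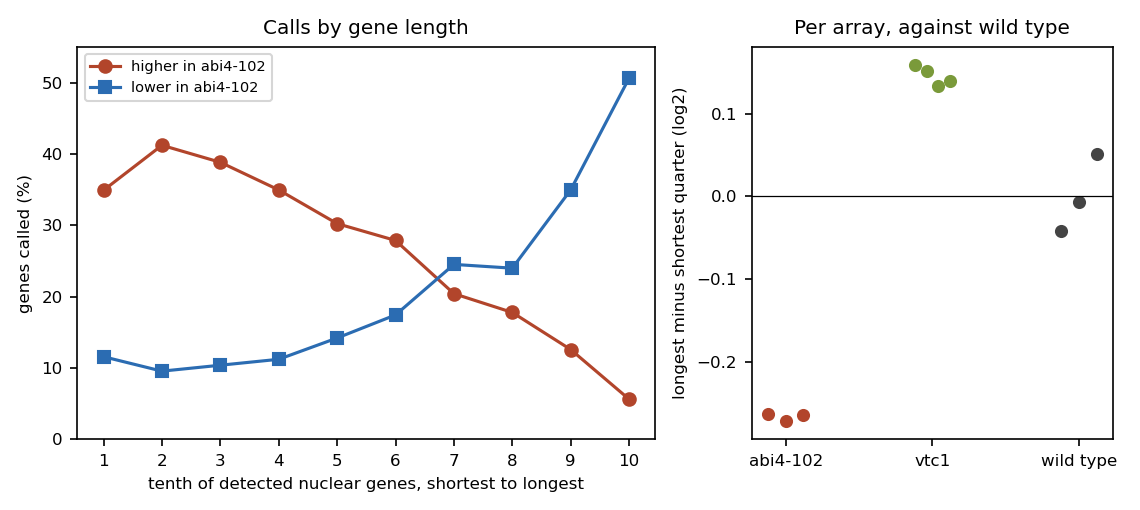
Left, share of detected nuclear genes called higher (circles) or lower (squares) in abi4-102 versus wild type, in percent, in 10 groups of equal size by genomic span from shortest to longest. Right, median log2 difference of the longest minus the shortest of 4 groups by span on each array, relative to the wild-type mean. For a wild-type array that mean leaves out the array itself. The 3 abi4-102 arrays lie near -0.26 and the 4 vtc1 arrays above 0.13.

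Transcripts encoded in the chloroplast were mostly lower in abi4-102 where they differed. The plastid genome carries genes for photosystem subunits, the cytochrome b6f complex, ATP synthase, the NDH complex of cyclic electron flow, ribosomal proteins and an RNA polymerase of bacterial type. Of 69 plastid-encoded genes measured, 7 were called higher and 29 lower (52.2% called, against 47.3% of detected genes), with a median log2 change of -0.14 against -0.0085 over all genes. The lower genes were spread unevenly over the complexes. Genes for ribosomal proteins had 0 higher and 10 lower of 15, with a median log2 change of -0.36. The RNA polymerase had 3 lower of 4, cytochrome b6f 3 of 6, ATP synthase 2 of 6 and photosystem I 1 of 5, with none higher. Photosystem II had 1 higher and 5 lower of 15. The NDH complex went both ways, with 3 higher and 5 lower of 10. With 1 array left out, the lower counts dropped to 3 for photosystem II (without abi4-102 replicate 2 or 3 or wild-type replicate 1), to 1 for cytochrome b6f (without abi4-102 replicate 3 or wild-type replicate 1) and, for the NDH complex, to 2 without abi4-102 replicate 3 and to 3 without abi4-102 replicate 2 or wild-type replicate 1.

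Within the plastid genes the largest fall was that of rpoC2, a catalytic subunit of the plastid RNA polymerase. It measured 152, 156 and 163 in abi4-102, against 343, 392 and 299.99 in wild type, a log2 change of -1.12 ± 0.10 (SE, limma adjusted p = 5.5e-07). All 3 abi4-102 arrays lay below all 3 wild-type arrays. petG, a small subunit of cytochrome b6f, measured 96.1, 75.04 and 57.3 in abi4-102, against 164, 146 and 135 in wild type, a log2 change of -0.98 ± 0.13 (SE, limma adjusted p = 2.9e-05). Its abi4-102 arrays were spread widely but stayed below the wild-type range. psbA, which encodes the D1 protein of photosystem II, measured 1309, 1259 and 1845 in abi4-102 and 2033, 2423 and 2154 in wild type, a log2 change of -0.60 ± 0.15 (SE, limma adjusted p = 0.0050). rpl33 fell by 0.62 on the log2 scale and atpA, the alpha subunit of ATP synthase, by 0.58, each with arrays that did not overlap. The NDH genes split by gene: ndhJ measured 727, 744 and 844 in abi4-102, against 1288, 1194 and 1044 in wild type, a log2 change of -0.60 ± 0.082 (SE, limma adjusted p = 2.9e-05). ndhA, for another subunit of the same complex, measured 1157, 1285 and 1208 in abi4-102, against 939, 1010.1 and 842 in wild type, a log2 change of 0.39 ± 0.074 (SE, limma adjusted p = 5.8e-04). Every abi4-102 array was thus below wild type for ndhJ and above it for ndhA. ndhH and ndhI, which lie beside ndhA in the plastid genome, rose by 0.39 and 0.25. Under scaling on the spike-in probe sets the plastid count was 8 higher and 24 lower, and under quantile normalization 5 and 34.

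**Figure D2:**
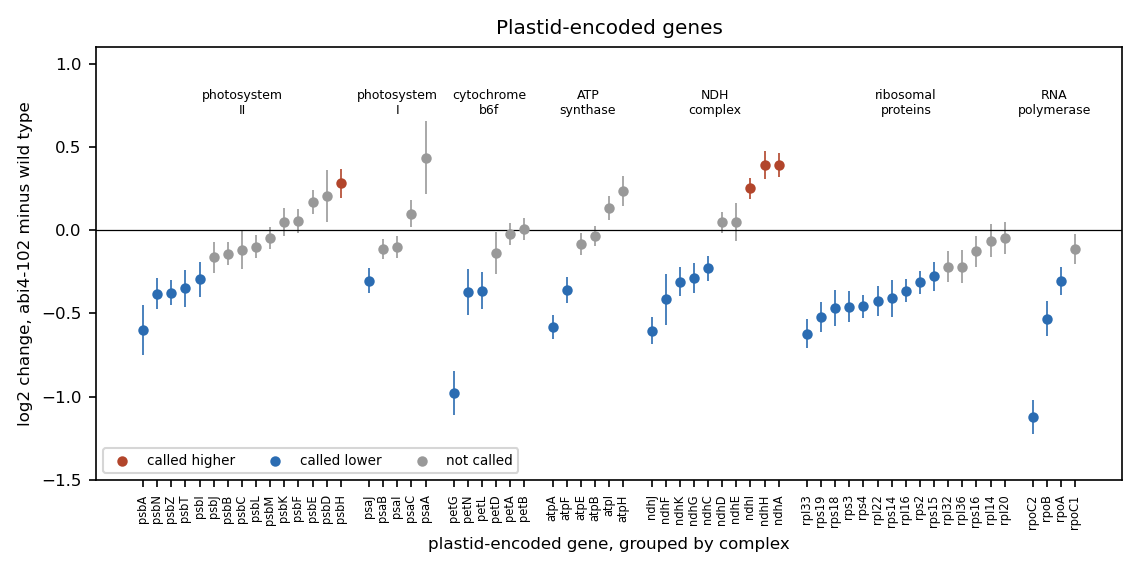
Log2 change (abi4-102 minus wild type, n = 3 arrays each) of plastid-encoded genes by complex, with bars of 1 standard error; colours mark genes called higher, called lower or not called. rpoC2 and petG lie lowest, and the ndhA, ndhH and ndhI points lie above 0 beside NDH genes that fell.

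Set against vtc1 instead, plastid-encoded genes stood higher in abi4-102, with 50 higher and 0 lower of 69, where 21.2% of all genes were called higher and 14.6% lower (35.9% called). That count depends on how abi4-102 and vtc1 arrays are scaled to each other: with spike-in scaling it was 22 higher and 2 lower. The fall of plastid transcripts against wild type is therefore given as a difference from wild type only.

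Nuclear genes whose products serve the chloroplast also fell more often than they rose. Assembly factors, which build photosystems without being part of them, had 0 higher and 7 lower of 10. HCF101, which supplies iron-sulphur clusters to photosystem I, measured 439, 429 and 419 in abi4-102, against 619, 588 and 566 in wild type, a log2 change of -0.46 ± 0.068 (SE, limma adjusted p = 6.0e-05). The groups did not overlap. ATAB2, which binds photosystem mRNAs for translation, fell by 0.37 and LPA1, a photosystem II assembly protein, by 0.32. Structural and electron-transfer proteins of the thylakoid had 1 higher and 7 lower of 22, which is nearer the background. Changes in this list ran from -2.17 to 0.36 (log2), and 1 member fell 2-fold or more. NdhN, a nuclear-encoded NDH subunit, fell by 0.44, ATPC2, a gamma subunit of ATP synthase, by 0.38. LIL3:1, of the light-harvesting-like proteins, rose by 0.36. Without wild-type replicate 1 the thylakoid proteins had 4 lower. With spike-in scaling the assembly factors had 3 lower and the thylakoid proteins 3. Their spans were short, at a median of 1773 and 1368 bases, and with the length trend removed 9 of 10 and 15 of 22 were lower.

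Pentatricopeptide repeat proteins, which edit and process organelle RNA, had 1 higher and 6 lower of 16. OTP84, an editing factor of the chloroplast, measured 68.2, 54.2 and 53.8 in abi4-102, against 104, 88.9 and 77.3 in wild type, a log2 change of -0.61 ± 0.11 (SE, limma adjusted p = 3.9e-04). Its abi4-102 arrays all lay below wild type. OTP81, CRR28 and CRR22, further editing factors of the chloroplast, fell by 0.36, 0.35 and 0.35. Among chaperonin-60 and Clp protease genes, which fold and degrade proteins of the chloroplast and mitochondrion, 3 of 5 fell and 1 rose. Cpn60beta2, a subunit of the chaperonin that folds Rubisco, measured 163, 178 and 171 in abi4-102, against 336, 336 and 343 in wild type, a log2 change of -0.99 ± 0.071 (SE, limma adjusted p = 3.2e-08). The change amounted to 1.98-fold lower, with all abi4-102 arrays below all wild-type arrays. Cpn60beta4, which helps to fold an NDH subunit, measured 108, 91.2 and 91.7 in abi4-102 and 178, 151 and 158 in wild type, a log2 change of -0.74 ± 0.080 (SE, limma adjusted p = 2.7e-06). Cpn60beta3 fell by 0.43, so the 3 beta subunits called moved the same way, while NCLPP7 stood at 0.27.

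Photorespiration and pigment synthesis were each lower at a leading enzyme. HPR, the peroxisomal hydroxypyruvate reductase that returns photorespiratory carbon, measured 2059.9, 1975 and 2055 in abi4-102, against 3285, 3349.6 and 3385 in wild type, a log2 change of -0.72 ± 0.061 (SE, limma adjusted p = 2.1e-07). Its groups were far apart relative to their spread. Of 6 Calvin cycle and photorespiration genes, 4 fell and none rose. PORB, which makes chlorophyllide in the light, measured 3600.3, 3359.8 and 3423 in abi4-102, against 4772, 4821 and 4394 in wild type, a log2 change of -0.43 ± 0.064 (SE, limma adjusted p = 7.2e-05). Chlorophyll and haem genes as a whole had 1 higher and 4 lower of 13, close to the share of all genes, and 1 higher and 1 lower with spike-in scaling. Without abi4-102 replicate 3 only 1 was lower. The summed leaf photosynthetic markers were lower in abi4-102, as given above. The lists were not kept apart, so a gene can be both a marker and a member of these groups. The part of the markers in the result was not tested.

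Carbohydrate genes changed at single steps more than as a pathway. Starch genes had 2 higher and 4 lower of 8. APL4, a large subunit of the enzyme that makes ADP-glucose for starch, measured 24.9, 25.4 and 24.8 in abi4-102, against 60.15, 58.05 and 57.1 in wild type, a log2 change of -1.19 ± 0.073 (SE, limma adjusted p = 4.4e-09). The groups did not overlap. The largest change of the list was the rise of QQS, a gene that affects starch content, which measured 503, 476 and 436 in abi4-102, against 51.4, 42.1 and 44.4 in wild type, a log2 change of 3.33 ± 0.081 (SE, limma adjusted p = 1.0e-13). The genes listed as PWD at AT5G26570 and AT4G24450, for dikinases of the kind that phosphorylate glucan, fell by 0.75 and 0.64. AMY1, a secreted alpha-amylase, measured 313, 285 and 271 in abi4-102, against 194, 202 and 175 in wild type, a log2 change of 0.60 ± 0.076 (SE, limma adjusted p = 1.5e-05). TMT1 and TMT2, sugar carriers of the vacuolar membrane, fell by 0.51 and 0.33. SWEET exporters, which let sugars leave cells, had 5 higher and 3 lower of 16, and 1 lower without abi4-102 replicate 2. SWEET13, which loads sucrose for the phloem, rose by 0.42 and SWEET2, a vacuolar glucose carrier, by 0.40. F2KP, which sets the level of fructose 2,6-bisphosphate, fell by 0.42.

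ATP-citrate lyase makes cytosolic acetyl-CoA from citrate and needs both its A and B subunits. ACLA-1 measured 616, 671 and 632 in abi4-102, against 875, 858 and 825 in wild type, a log2 change of -0.41 ± 0.063 (SE, limma adjusted p = 8.1e-05). ACLB-1 measured 327, 367 and 369 in abi4-102, against 456, 411 and 452 in wild type, a log2 change of -0.31 that was not called with the length trend removed. The abi4-102 arrays lay below wild type for both genes, beside the much larger fall of ACLA-2 (-2.61). Citrate cycle genes themselves did not fall together: SDH2-2 and IDH-V rose by 0.38 and 0.27, and the list had 3 higher and 4 lower of 17, with 5 higher without wild-type replicate 3. Leucine breakdown fell at both subunits of methylcrotonyl-CoA carboxylase. MCCB measured 193, 181 and 154 in abi4-102, against 337, 257 and 304 in wild type, a log2 change of -0.76 ± 0.095 (SE, limma adjusted p = 1.2e-05), and MCCA fell by 0.62. PAHX, ALDH6B2 and ETFALPHA, which act in the breakdown of phytol, valine and branched-chain amino acids, rose by 0.53, 0.47 and 0.36, so the breakdown genes split with 4 higher and 2 lower of 12.

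Mitochondrial electron transport showed single changes in both directions. NDB2, an external NADH dehydrogenase that bypasses complex I, measured 301, 332 and 345 in abi4-102, against 171, 185 and 204 in wild type, a log2 change of 0.80 ± 0.075 (SE, limma adjusted p = 5.8e-07). CYTC-2, a cytochrome c, measured 191, 189.7 and 199.5 in abi4-102, against 127, 123.17 and 108 in wild type, a log2 change of 0.69 ± 0.087 (SE, limma adjusted p = 1.4e-05). Both rose with arrays that did not overlap, while NDB1, a NADPH dehydrogenase of the same family, fell by 0.38. Genes encoded in the mitochondrion had 3 higher and 2 lower of 16, close to the share of all genes, with 5 at the control level. The count higher was 1 without abi4-102 replicate 1 or 2 or wild-type replicate 1 or 3. Among them ccb382, a cytochrome c maturation gene, measured 194, 205 and 179.6 in abi4-102, against 290.03, 349 and 325 in wild type, a log2 change of -0.73 ± 0.076 (SE, limma adjusted p = 1.8e-06), and cox1, a subunit of cytochrome oxidase, fell by 0.37.

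Genes that reduce oxidised proteins rose where they were called. Methionine sulfoxide reductases, which reverse the oxidation of methionine, had 4 higher and 0 lower of 5. MSRB6 measured 239.98, 205 and 227 in abi4-102, against 154, 145 and 166 in wild type, a log2 change of 0.53 ± 0.087 (SE, limma adjusted p = 1.8e-04). MSRB9 measured 124, 125 and 129.9 in abi4-102, against 50.9, 52.02 and 68.5 in wild type, a log2 change of 1.14 ± 0.095 (SE, limma adjusted p = 1.5e-07). Both had every abi4-102 array above wild type, and MSRA5 rose by 0.34. Against vtc1 they parted, MSRB6 standing 0.68 higher and MSRB9 at -1.07. Thioredoxins and glutaredoxins, which pass electrons to protein disulphides, had 4 higher and 0 lower of 14. That was 28.6% called, below the 31.9% of all genes, and quantile normalization gave 4 higher and 2 lower. Their log2 changes ran from -0.16 to 1.04. GRXC1, a cytosolic glutaredoxin, measured 412, 407 and 376 in abi4-102, against 230.2, 223 and 208 in wild type, a log2 change of 0.85 ± 0.070 (SE, limma adjusted p = 1.3e-07). TO2, a mitochondrial thioredoxin, rose by 0.61. Ascorbate and glutathione enzymes went evenly both ways (3 higher, 3 lower of 11), as did glutathione transferases (3 and 3 of 14) and class III peroxidases (2 and 2 of 7). Among the peroxidases AT5G64120, annotated as PRX71, measured 46.1, 43.7 and 40.2 in abi4-102, against 22.5, 20.2 and 19.4 in wild type, a log2 change of 1.03 ± 0.073 (SE, limma adjusted p = 2.4e-08). With the length trend removed the methionine sulfoxide reductases had 3 higher and 1 lower, and the thioredoxins and glutaredoxins 3 and 1 of 12.

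The ubiquitin system divided between enzymes that attach ubiquitin and enzymes that remove it. Ubiquitin-conjugating enzymes (E2), which carry ubiquitin to a substrate, had 8 higher and 0 lower of 13, while ubiquitin-specific proteases, which take it off, had 0 higher and 7 lower of 12. UBC28 measured 3302, 3183 and 3001 in abi4-102, against 1861, 1740.3 and 2041 in wild type, a log2 change of 0.75 ± 0.083 (SE, limma adjusted p = 3.3e-06). UBC16 measured 126, 130.1 and 119 in abi4-102, against 85.6, 87.9 and 87.6 in wild type, a log2 change of 0.52 ± 0.069 (SE, limma adjusted p = 2.5e-05). On both genes every abi4-102 array exceeded every wild-type array. UBP23 measured 96.9, 69.3 and 76.4 in abi4-102, against 133, 109.8 and 122 in wild type, a log2 change of -0.59 ± 0.10 (SE, limma adjusted p = 2.8e-04). UBP15, known for a part in leaf growth, measured 91.9, 82.7 and 67.6 in abi4-102, against 121, 111 and 118 in wild type, a log2 change of -0.53 ± 0.091 (SE, limma adjusted p = 2.4e-04). UBP26, which deubiquitinates histone H2B, fell by 0.48. The families also differ in span, at a median of 1853 bases for the E2 genes and 3950.5 for the proteases. With the length trend removed the counts became 4 higher and 2 lower of 12 E2 genes, and 0 higher and 5 lower of 12 proteases. Leaving out abi4-102 replicate 2 gave 4 higher E2 genes and leaving out wild-type replicate 1 gave 5. The E2 count was 4 higher and 1 lower with quantile normalization, and 4 and 0 with spike-in scaling. Plant U-box ligases had 4 higher and 1 lower of 9. PUB23 and PUB24, which restrain immune signalling, rose by 0.54 and 0.39. PUB25 and PUB26 mark the immune kinase BIK1 for degradation. PUB26 rose by 0.46, and PUB25 measured 20.5, 21.5 and 17.02 in abi4-102, against 10.8, 10.5 and 10.03 in wild type, at the control level, so it was at least 1.13-fold higher (limma adjusted p = 4.8e-06).

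Autophagy genes rose where they were called. The ATG8 proteins coat the autophagosome and are joined to its lipid by a conjugation system, and 6 of 11 such genes were higher and 0 lower, with a median log2 change of 0.30. ATG8E measured 302, 246 and 253 in abi4-102, against 201, 182 and 149 in wild type, a log2 change of 0.59 ± 0.12 (SE, limma adjusted p = 8.3e-04). ATG8D measured 365, 339.7 and 310.2 in abi4-102, against 255, 236 and 229.9 in wild type, a log2 change of 0.49 ± 0.071 (SE, limma adjusted p = 5.2e-05). The lowest abi4-102 array of each gene lay above the highest wild-type array. ATG8C and APG8A, another ATG8 gene, rose by 0.47 and 0.45, and AT5G66930, annotated as ATG101 of the initiation complex, by 0.37. With the length trend removed 5 of 11 were still higher, and the median span was 1798 bases.

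Genes of protein folding and degradation at the endoplasmic reticulum followed the same direction, with 8 higher and 0 lower of 14. DER2.1, a derlin that helps to draw misfolded proteins out of the reticulum, measured 349, 387 and 322 in abi4-102, against 229, 166 and 229.96 in wild type, a log2 change of 0.77 ± 0.10 (SE, limma adjusted p = 2.9e-05). DER2.2 rose by 0.38, PDIL5-1, a protein disulphide isomerase, by 0.41 and OS9, a lectin that picks proteins for degradation, by 0.37. The groups did not overlap for any of these 4 genes. DER1 had 2 probe sets that disagreed, at 0.47 for the brighter and -0.032 for the other. The median span of the list, 2773.5 bases, was above that of all genes (2105), and with the length trend removed the count stayed at 8 higher and 0 lower. Against vtc1 the same list had 2 higher and 10 lower. Cytosolic chaperones went the other way in part: Hop1 and Hop2, which link HSP70 to HSP90, fell by 0.54 and 0.56, while Fes1A, a factor that works with HSP70, rose by 0.44.

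The lists for membrane traffic differed in direction. Genes of the exocyst and of SNARE-driven fusion, which carry secretory vesicles to their target membrane, had 1 higher and 8 lower of 17. Genes of the ESCRT complexes, which sort membrane proteins to the vacuole, had 6 higher and 0 lower of 15. ATSLY1, a partner of SNARE proteins, measured 152, 139 and 153 in abi4-102, against 206, 175 and 191 in wild type, a log2 change of -0.37 ± 0.072 (SE, limma adjusted p = 7.9e-04). SEC22, a SNARE of traffic between reticulum and Golgi, measured 664, 623 and 619.99 in abi4-102, against 493, 492 and 483 in wild type, a log2 change of 0.38 ± 0.061 (SE, limma adjusted p = 1.5e-04). VPS20.1 of the ESCRT-III complex measured 163, 141 and 129 in abi4-102, against 117, 112 and 105 in wild type, a log2 change of 0.36 ± 0.081 (SE, limma adjusted p = 0.0022). The groups stood apart for these 3 genes. The exocyst and SNARE genes were long, at a median of 4659 bases, and with the length trend removed 3 of 14 were lower; SEC5A, SEC10 and KEU, at -0.37, -0.35 and -0.36, were then not called. Without wild-type replicate 2 the ESCRT list had 3 higher. The ESCRT count was 3 of 14 higher after that removal and 2 of 15 with quantile normalization. Tetraspanins, which organise membrane patches, had 5 higher and 0 lower of 15, and 3 higher without wild-type replicate 2. That was 33.3% called, close to the 31.9% of all genes. Their median span was short, at 1549 bases, and with the length trend removed 3 were higher and 1 lower of 7. TET8, found on vesicles that leaf cells secrete, measured 883, 899 and 893 in abi4-102, against 496, 539 and 535 in wild type, a log2 change of 0.77 ± 0.063 (SE, limma adjusted p = 1.2e-07).

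Cytoskeletal genes were mostly lower where they were called. Tubulins, actins and myosins had 0 higher and 6 lower of 15, and NETWORKED proteins, which tie actin to membranes, 0 higher and 5 lower of 10, although 7 of those 10 genes were at the control level in both groups. The NETWORKED count was 3 lower without any 1 of the arrays except wild-type replicate 2. TUB6, a beta-tubulin, measured 344, 372 and 369.7 in abi4-102, against 461, 484 and 479 in wild type, a log2 change of -0.39 ± 0.065 (SE, limma adjusted p = 1.9e-04). TUB1 and TUB5 fell by 0.45 and 0.34. IQ-domain proteins, which bind calmodulin and sit on microtubules, had 1 higher and 4 lower of 15. IQD30 measured 36.8, 36.2 and 48.9 in abi4-102, against 77.8, 77.5 and 86.1 in wild type, a log2 change of -0.98 ± 0.11 (SE, limma adjusted p = 3.5e-06). IQD24 measured 78.3, 63.5 and 61.6 in abi4-102, against 131, 116 and 112 in wild type, a log2 change of -0.81 ± 0.093 (SE, limma adjusted p = 4.9e-06). The abi4-102 arrays lay well below wild type for both, and IQD31 fell by 0.63. These families were longer than the median of all genes, with median spans of 3114, 3320.5 and 2785 bases, and 4 of 10, 1 of 2 and 3 of 9 members were lower with the length trend removed. Genes of mitosis, of which 7 of 13 were at the control level in both groups, had 3 lower and none higher, among them PRL (-0.54), a licensing factor of DNA replication, and HBT (-0.49), a subunit of the anaphase-promoting complex.

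In the nucleus, histone genes were higher where they were called, while more remodelling and repair genes were lower than higher. Histones had 4 higher and 0 lower of 8. HTB11, an H2B histone, measured 178, 183 and 167 in abi4-102, against 83.9, 64.2 and 75.4 in wild type, a log2 change of 1.24 ± 0.084 (SE, limma adjusted p = 1.4e-08). HTB2, another H2B gene, measured 86.4, 82.9 and 79.8 in abi4-102, against 40.2, 50.2 and 41.2 in wild type, a log2 change of 0.91 ± 0.078 (SE, limma adjusted p = 2.2e-07). Each was raised on all 3 abi4-102 arrays, 2.36-fold and 1.88-fold. Histone genes are short, at a median of 1087.5 bases, and with the length trend removed 2 were higher and 1 lower of 6. DNA repair genes had 0 higher and 5 lower of 17. ATNTH1, a glycosylase that excises oxidised bases, measured 44.4, 40.8 and 42.6 in abi4-102, against 75.3, 77.7 and 80.7 in wild type, a log2 change of -0.86 ± 0.066 (SE, limma adjusted p = 6.0e-08). Chromatin remodelling factors had 2 higher and 4 lower of 15. CHR17, of the ISWI type, measured 30.1, 30.1 and 27.4 in abi4-102, against 42.2, 37.5 and 43.3 in wild type, a log2 change of -0.47 ± 0.079 (SE, limma adjusted p = 2.0e-04). INO80, with a span of 8744 bases, stood at -0.49 and was not called with the length trend removed. Repair and remodelling genes were long, at median spans of 4164 and 4950 bases. Among all detected nuclear genes of the longest span group, 50.6% were called lower. With the length trend removed 0 were higher and 4 lower of 9 repair genes, and 2 higher and 3 lower of 10 remodelling genes.

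Of 14 splicing and mRNA decay genes 13 were called, with 8 higher and 5 lower. Of the 13 detected members 8 were higher and 4 lower, where 47.3% of detected genes were called. SM-like proteins, which form the ring that starts mRNA decay or holds U6 RNA, made up 6 of the 8 increases. LSM6A measured 408, 407 and 386 in abi4-102, against 309, 289.6 and 285 in wild type, a log2 change of 0.44 ± 0.064 (SE, limma adjusted p = 5.1e-05), and LSM6B rose by 0.51 and LSM3A by 0.49. The factor that marks the 3' splice site has a small and a large subunit, and these went apart. U2AF35B, the small subunit, measured 162, 170.04 and 195 in abi4-102, against 114, 113 and 92.6 in wild type, a log2 change of 0.72 ± 0.088 (SE, limma adjusted p = 9.8e-06). ATU2AF65A, the large subunit, measured 74.8, 70.6 and 75.8 in abi4-102, against 101, 109 and 124 in wild type, a log2 change of -0.59 ± 0.078 (SE, limma adjusted p = 2.5e-05). AT1G09230, annotated as the U11/U12-65K protein of the minor spliceosome, fell by 0.52. With the length trend removed the list had 8 higher and 3 lower of 13.

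Among hormone pathways, the receptors of gibberellin rose together. GID1 proteins bind gibberellin and then the DELLA repressors, which the F-box protein SLY1 marks for destruction. GID1B measured 70.7, 64.8 and 77.1 in abi4-102, against 39.4, 48.4 and 35.04 in wild type, a log2 change of 0.79 ± 0.10 (SE, limma adjusted p = 1.7e-05). GID1C measured 77.4, 71.97 and 76.7 in abi4-102, against 53.1, 57.9 and 46.5 in wild type, a log2 change of 0.52 ± 0.096 (SE, limma adjusted p = 5.0e-04). SLY1 measured 155, 152 and 154 in abi4-102, against 98.6, 86.8 and 101 in wild type, a log2 change of 0.68 ± 0.068 (SE, limma adjusted p = 1.1e-06). With GID1A (0.36) these made 4 higher and 0 lower of 6 genes, no groups overlapped for the 4, and they numbered 4 of 5 with the length trend removed. Abscisic acid, cold and LEA genes, the pathway ABI4 is named for, had 4 higher and 3 lower of 17, near the background. DI19, a zinc-finger protein first found in drought, measured 2141, 1985 and 1961 in abi4-102, against 1272, 1425 and 1316 in wild type, a log2 change of 0.60 ± 0.077 (SE, limma adjusted p = 1.5e-05). Auxin genes had 1 higher and 2 lower of 17. Cytokinin response regulators had 1 called of 6, RR16, which measured 51.1, 54.03 and 48.04 in abi4-102, against 29.1, 29.7 and 32.3 in wild type, a log2 change of 0.73 ± 0.068 (SE, limma adjusted p = 5.6e-07). Jasmonate genes had 3 higher and 0 lower of 10, and salicylic acid and senescence genes 5 higher and 1 lower of 10. JRG21, a jasmonate-responsive oxygenase, measured 42.2, 50.2 and 42.2 in abi4-102, against 25.2, 20.8 and 17.5 in wild type, a log2 change of 1.06 ± 0.11 (SE, limma adjusted p = 1.6e-06).

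Transcription factor families held strong single changes, and their counts depended on how many members were detected. Of 11 AP2/ERF genes, the family of ABI4 itself, 2 rose and 4 fell. ORA47, which switches on jasmonate synthesis, measured 134, 134 and 139 in abi4-102, against 47.2, 57.4 and 40.4 in wild type, a log2 change of 1.48 ± 0.095 (SE, limma adjusted p = 7.2e-09). AT5G61590, annotated as DEWAX, a repressor of wax synthesis, rose by 0.68. The related TINY genes tny and TINY2, which act in stress and brassinosteroid responses, fell by 0.39 and 0.35, and SHN3, an activator of cuticle genes, by 0.31. Of 7 WRKY genes, 4 rose and 2 fell. Their log2 changes ran from -0.39 to 2.21, with 2 genes raised 2-fold or more. WRKY47 measured 64.9, 65.4 and 55.3 in abi4-102, against 24.3, 25.2 and 24.3 in wild type, a log2 change of 1.29 ± 0.080 (SE, limma adjusted p = 5.1e-09). The arrays of the groups did not overlap. Of 24 bZIP genes 4 rose and 2 fell. BZIP61 measured 47.04, 42.6 and 48.2 in abi4-102, against 25.1, 23.997 and 24.6 in wild type, a log2 change of 0.87 ± 0.067 (SE, limma adjusted p = 5.9e-08). BZIP53, of the sugar- and starvation-responsive S1 group, measured 634, 578 and 511 in abi4-102, against 313, 334 and 333 in wild type, a log2 change of 0.81 ± 0.075 (SE, limma adjusted p = 5.2e-07). Both stood higher against vtc1 too (0.75 and 0.76). MADS-box genes, many of them active in flowers, were at the control level in both groups for 29 of 42, and 3 rose and 3 fell. Among detected members 3 rose and 3 fell of 12 MADS-box genes and 3 rose and 2 fell of 13 bZIP genes. AGL42 measured 15.9, 13.3 and 14.7 in abi4-102, at or below the control level, against 35.6, 39.8 and 40.6 in wild type, so it was at least 2.06-fold lower (limma adjusted p = 4.4e-09).

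Several defence genes changed by 2-fold or more. Defensins, thionins and other antimicrobial proteins had 9 higher and 2 lower of 20, and 6 of them rose 2-fold or more, where 0.951% of all genes did. PDF1.4, a plant defensin, measured 109, 119 and 112 in abi4-102, against 36.3, 36.4 and 45.6 in wild type, a log2 change of 1.51 ± 0.10 (SE, limma adjusted p = 1.3e-08). OSM34, an osmotin, measured 55.1, 41.3 and 57.1 in abi4-102, against 22.8, 20.6 and 19.5 in wild type, a log2 change of 1.23 ± 0.11 (SE, limma adjusted p = 3.5e-07). CHI, a chitinase gene, measured 2884, 2971 and 2855 in abi4-102, against 1156, 1206 and 1265 in wild type, a log2 change of 1.26 ± 0.072 (SE, limma adjusted p = 2.0e-09). None of these groups overlapped. Defensin-like LCR68 and LCR69 moved apart. LCR69 measured 2271, 2074 and 2106 in abi4-102, against 993, 999.9 and 934 in wild type, a log2 change of 1.14 ± 0.063 (SE, limma adjusted p = 1.3e-09). LCR68 measured 515, 558 and 551 in abi4-102, against 862, 868 and 888 in wild type, a log2 change of -0.69 ± 0.062 (SE, limma adjusted p = 3.9e-07). So the sign of the change was not shared by the family. The list is short in span (862.5 bases), and with the length trend removed 9 were higher and 2 lower of 11.

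Calcium sensors and signalling peptides were also higher where called. Calmodulin-like proteins, which sense calcium, had 6 higher and 0 lower of 8. CML41 measured 194, 181 and 159.7 in abi4-102, against 84.04, 87.8 and 70.9 in wild type, a log2 change of 1.13 ± 0.096 (SE, limma adjusted p = 2.0e-07). CML38 measured 37.5, 40.02 and 43.1 in abi4-102, against 13.9, 15.5 and 13.01 in wild type, where all arrays were at the control level, so it was at least 2.26-fold higher (limma adjusted p = 3.2e-09). CML37 was called but lay at the control level in both groups. With the length trend removed 2 of 5 detected members were higher. RALF-like peptides, which signal through receptors of the cell wall, had 4 higher and 0 lower of 11. RALFL33 measured 260.1, 262 and 249 in abi4-102, against 135, 154 and 151 in wild type, a log2 change of 0.80 ± 0.067 (SE, limma adjusted p = 1.5e-07). Glutamate receptor-like channels had 3 higher and 1 lower of 8, led by GLR2.8 (0.70). Against vtc1 the same channels had 0 higher and 6 lower in abi4-102. Receptor kinases as a group (5 higher, 3 lower of 21) had 2 higher without abi4-102 replicate 1 or wild-type replicate 1 and 3 without wild-type replicate 2. BIK1, the kinase that relays signals from immune receptors, measured 116, 114 and 99.5 in abi4-102, against 62.6, 67.1 and 68.7 in wild type, a log2 change of 0.72 ± 0.079 (SE, limma adjusted p = 3.1e-06).

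In specialised metabolism, some transport and glycosylation genes changed and others were not called. GTR1 and GTR2 import glucosinolates, the mustard oil precursors, into cells and are often described as a pair. GTR2 measured 380.4, 383 and 365 in abi4-102, against 169, 190.3 and 182 in wild type, a log2 change of 1.06 ± 0.071 (SE, limma adjusted p = 1.3e-08). GTR1 measured 205, 182 and 187 in abi4-102, against 247, 257 and 249 in wild type, a log2 change of -0.39 ± 0.070 (SE, limma adjusted p = 3.4e-04). The groups stood apart for both genes, in opposite directions. The glucosinolate list as a whole had 2 higher and 2 lower of 9. AT1G68570, annotated as NPF3.1, a carrier in the same transporter family, rose by 0.73. UDP-glycosyltransferases, which attach sugars to small molecules, had 14 higher and 8 lower of 51, and 5 lower without wild-type replicate 3. UGT73D1 measured 28.02, 27.7 and 25.4 in abi4-102, against 14.7, 15.4 and 18.4 in wild type, a log2 change of 0.71 ± 0.096 (SE, limma adjusted p = 2.6e-05). UGT71C5, which conjugates abscisic acid, rose by 0.50, and UGT71B6, of the same activity, measured 22.6, 21.4 and 21.8 in abi4-102 and 14.1, 13.03 and 16.3 in wild type, at the control level, so it was at least 1.26-fold higher (limma adjusted p = 3.4e-05). UGT85A5 fell by 0.37. With spike-in scaling the family had 13 higher and 3 lower. Cytochromes P450 had 3 higher and 2 lower of 24, and beta-glucosidases 2 higher and 1 lower of 22, with 16 of the 22 at the control level. Both were below the share of all genes. Among the 5 called P450 genes CYP71B36 and CYP71B24 each rose by 0.75 and CYP71B26 by 0.54, and CYP71B28 fell by 0.48. AT3G13610, annotated as F6'H1, the entry enzyme of scopoletin synthesis, measured 107, 104 and 106 in abi4-102, against 48.9, 48.6 and 46.25 in wild type, a log2 change of 1.13 ± 0.060 (SE, limma adjusted p = 9.2e-10).

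Cell wall genes changed at single members in both directions. TRICHOME BIREFRINGENCE-LIKE proteins, which acetylate wall polysaccharides, had 3 higher and 6 lower of 24. TBL38 measured 58.3, 56.3 and 53.9 in abi4-102, against 103, 113 and 129 in wild type, a log2 change of -1.01 ± 0.078 (SE, limma adjusted p = 6.4e-08). TBL45 measured 126, 153 and 132 in abi4-102, against 71.01, 76.8 and 85.04 in wild type, a log2 change of 0.81 ± 0.081 (SE, limma adjusted p = 1.1e-06). TBL39 rose by 0.71 and TBL36 fell by 0.46, so the groups were separate but the direction depended on the gene. Expansins, which loosen the wall, had 4 higher and 2 lower of 19, and 2 higher without wild-type replicate 1. EXLA1 measured 78.4, 77.9 and 93.6 in abi4-102, against 41.6, 42.4 and 47.2 in wild type, a log2 change of 0.91 ± 0.081 (SE, limma adjusted p = 3.2e-07), and EXPB1 fell by 0.59. EXGT-A3, a xyloglucan endotransglucosylase, measured 446, 434 and 433 in abi4-102, against 287, 296 and 286 in wild type, a log2 change of 0.59 ± 0.064 (SE, limma adjusted p = 2.6e-06). Its family had 3 higher and 0 lower of 10, with 7 at the control level. Secreted proteases also went both ways, with serine carboxypeptidase-like proteins at 4 higher and 6 lower of 29 (3 lower without abi4-102 replicate 2 or wild-type replicate 3) and subtilases at 2 higher and 4 lower of 10. ATSBT5.2 measured 36.6, 45.6 and 44.8 in abi4-102, against 85.2, 85.1 and 77.6 in wild type, a log2 change of -0.95 ± 0.088 (SE, limma adjusted p = 5.1e-07), and SBT3.3, which primes immunity, rose by 0.75.

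Other families moved at single members. Nuclear RNA polymerase genes had 1 higher and 4 lower of 12, among them NRPC1, the largest subunit of polymerase III, which lay at the control level on the abi4-102 arrays. Iron-related bHLH factors had 2 higher and 1 lower of 7, with bHLH104 up (0.34) and its relative bHLH115 down (-0.31). Of 15 other bHLH genes 2 rose and 1 fell, and UPB1, a repressor of peroxidase genes in roots, was called but lay at the control level in both groups. Cation and metal transporters had 1 higher and 2 lower of 14. CHX16, of the cation/proton exchangers, measured 110.4, 108 and 98.003 in abi4-102, against 77.4, 71.7 and 64.3 in wild type, a log2 change of 0.56 ± 0.080 (SE, limma adjusted p = 4.3e-05). The groups did not overlap. Nitrate and peptide transporters had 2 higher and 3 lower of 12, and AT1G59740, annotated as NPF4.3, fell by 0.44.

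**Figure D3:**
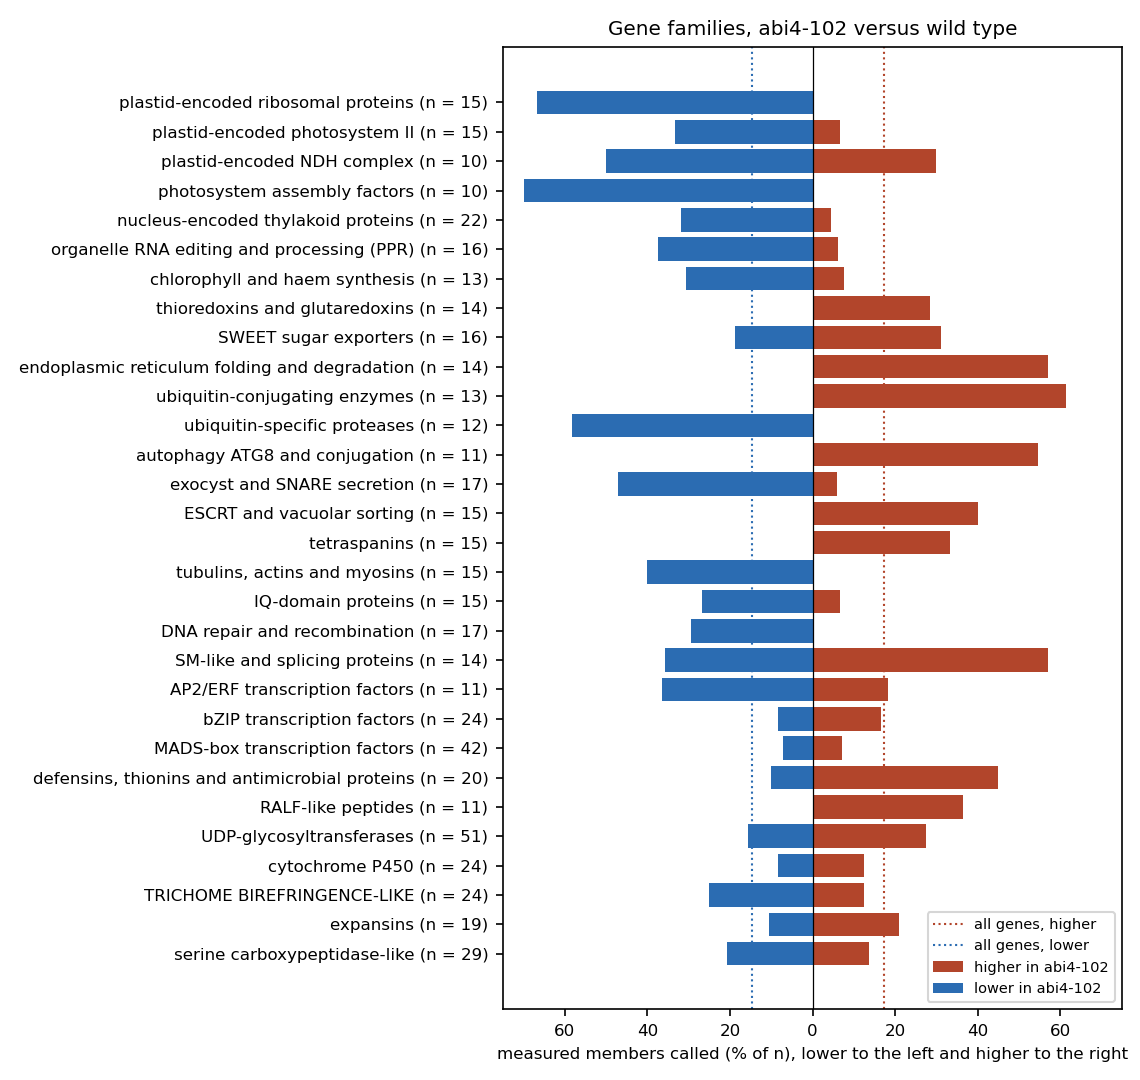
Share of measured members of 30 gene families called lower (bars to the left) or higher (bars to the right) in abi4-102 versus wild type, in percent of n. Dotted lines mark the shares over all genes, 17.3% higher and 14.6% lower. For families whose members were nearly all detected, the background is the share of detected genes, 26.4% higher and 21.0% lower. The families, each of at least 10 measured members, were chosen after their values were seen; ubiquitin-conjugating enzymes reach 61.5% to the right and photosystem assembly factors 70% to the left.

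Of 4 genes listed as markers of the stomatal lineage 1 was called, STOMAGEN. Its peptide is made in the mesophyll and raises stomatal number, so the transcript does not mark cells of the lineage. It measured 117, 109.8 and 109 in abi4-102, against 159.6, 146 and 153 in wild type, a log2 change of -0.45 ± 0.068 (SE, limma adjusted p = 8.7e-05). The list summed to 173 to 184 in abi4-102 and to 219 to 230 in wild type, with SPCH and MUTE at the control level. STOMAGEN made up the larger part of these sums, so they do not measure the lineage. Trichome and epidermis markers had 1 higher and 1 lower of 4 and sums of 188 to 200 in abi4-102 against 198 to 208 in wild type. Root markers had 1 lower of 4, EXPA7 (-0.41), and with MTPA1 and PYK10 at the control level they summed to 46.4 to 52.0 in abi4-102 and to 52.0 to 60.5 in wild type. Reproductive markers had 1 higher of 13 and summed to 157 to 171 in abi4-102 against 156 to 164 in wild type. Their part in the family results was not tested.

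**Figure D4:**
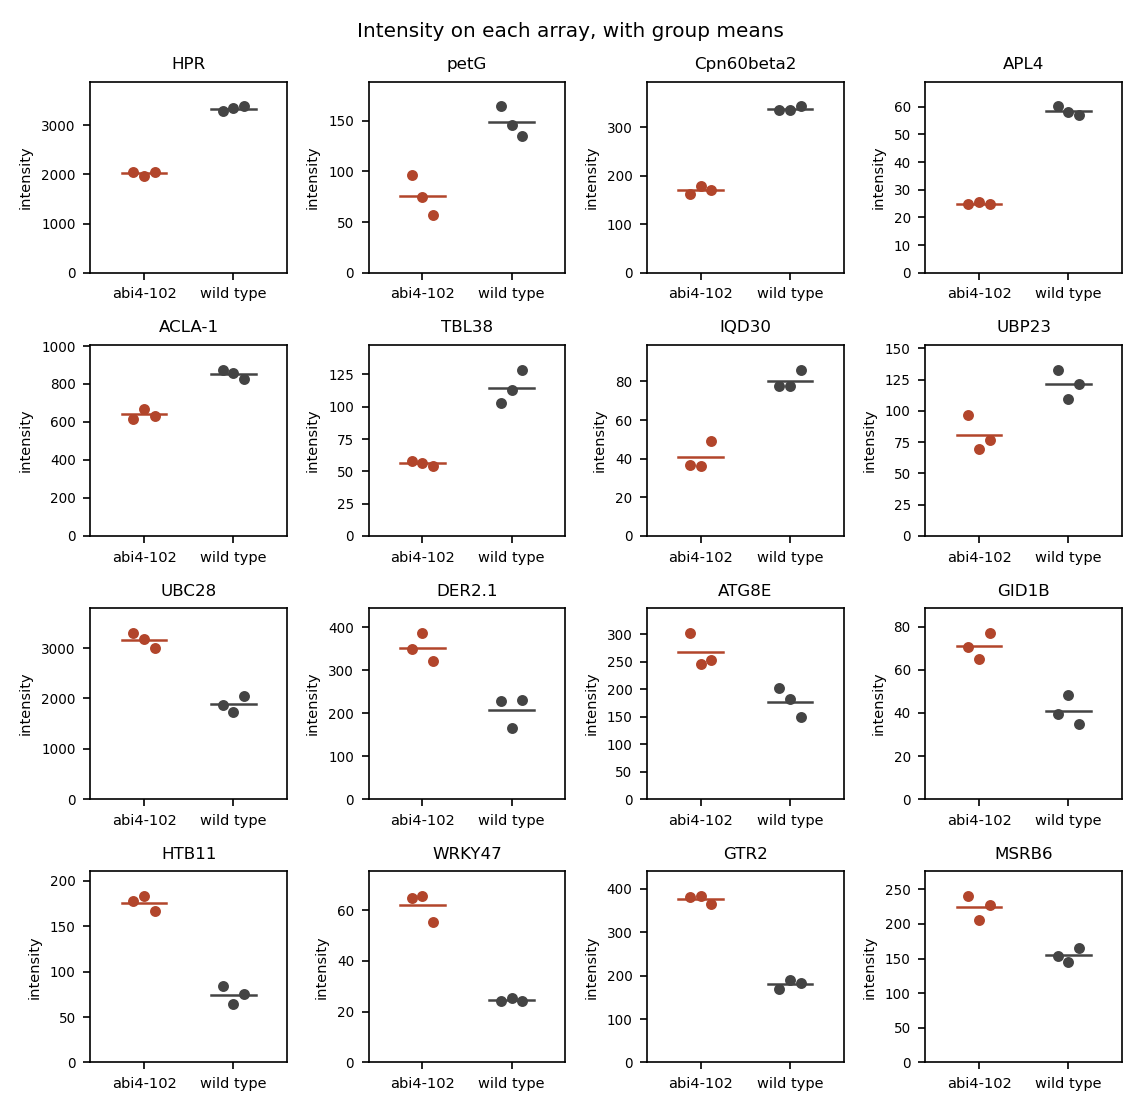
Deposited intensity of 16 genes described in the text on each of the 3 abi4-102 arrays (left) and the 3 wild-type arrays (right), with a line at the mean of each group; each vertical axis starts at 0. The first 8 genes, from HPR to UBP23, lie lower in abi4-102 and the other 8, from UBC28 to MSRB6, lie higher.

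Of the 10 genes with the least adjusted p among called changes between 0.5 and 1, 9 rose. The 843 called genes of that size were not split by direction, and at 2-fold or more 127 genes rose and 44 fell. AT4G31570, the only gene of the 10 that fell, measured 7.47, 7.48 and 7.26 in abi4-102, against 15.4, 15.2 and 16.04 in wild type (limma adjusted p = 8.5e-09), and lay at the control level in both groups. WRKY6, a regulator of senescence and phosphate uptake, measured 60.4, 63.95 and 61.8 in abi4-102, against 32.4, 32.8 and 34.2 in wild type, a log2 change of 0.88 ± 0.061 (SE, limma adjusted p = 1.9e-08). ZCF37 measured 155, 149.9 and 137 in abi4-102, against 73.7, 74.9 and 76.8 in wild type, a log2 change of 0.96 ± 0.066 (SE, limma adjusted p = 1.7e-08). For both genes the lowest abi4-102 array exceeded the highest wild-type array. Among the 5 brightest genes called in each direction, those lower were rps4, AT1G09310, PORB, RCA and AT1G74470, annotated as geranylgeranyl reductase. Of these, rps4, PORB, RCA and AT1G74470 encode chloroplast proteins, and the share of such genes among equally bright genes was not counted. Those higher were AT4G16190, AT1G78040, AT5G20290, ndhI and AT3G22240, at 0.17 to 0.29, and all but ndhI lost the call under some other setting.

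The direct comparison with vtc1 shows where abi4-102 differed from both other lines. Because both comparisons share the abi4-102 arrays, each gene's values are given side by side. Against vtc1 alone, 39% of all probe sets were called, 21.2% higher and 17.8% lower, and 0.382% of genes were 2-fold higher and 0.21% 2-fold lower. At 2-fold or more from both there were 19 genes higher, 4 of them annotated pseudogenes, and 3 lower. AT1G21550 measured 115, 95.6 and 98.3 in abi4-102, 45.02, 55.1, 46.1 and 50.1 in vtc1 and 24.23, 24.8 and 25.2 in wild type. The 3 lines thus stood in order, with abi4-102 highest. AT5G19120 measured 244, 265 and 227 in abi4-102, 68.1, 74.2, 72.6 and 67.7 in vtc1 and 98.2, 92.2 and 98.9 in wild type, so vtc1 lay on the other side of wild type. AT5G03090 measured 79.5, 122 and 125 in abi4-102, against 11.3, 10.6, 12.7 and 11.6 in vtc1 and 12.1, 11.5 and 12.9 in wild type. It was at the control level in wild type and at least 5.92-fold higher in abi4-102 (limma adjusted p = 5.5e-11). AT2G40960 measured 23.2, 22.5 and 19.3 in abi4-102, 85.4, 89.97, 81.5 and 87.1 in vtc1 and 120.1, 106 and 108 in wild type, a log2 change of -2.31 ± 0.078 (SE, limma adjusted p = 4.5e-12) against wild type. AT5G50310 measured 18.1, 10.3 and 15.2 in abi4-102, 72.8, 81.1, 71.4 and 80.6 in vtc1 and 78.2, 67.997 and 69.2 in wild type, at least 3.78-fold lower than wild type (limma adjusted p = 3.1e-09). AT1G30250 measured 221, 218 and 186 in abi4-102, 574, 551, 537 and 513 in vtc1 and 739.6, 696 and 734 in wild type. For these 3 genes abi4-102 lay below every array of both other lines.

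**Figure D5:**
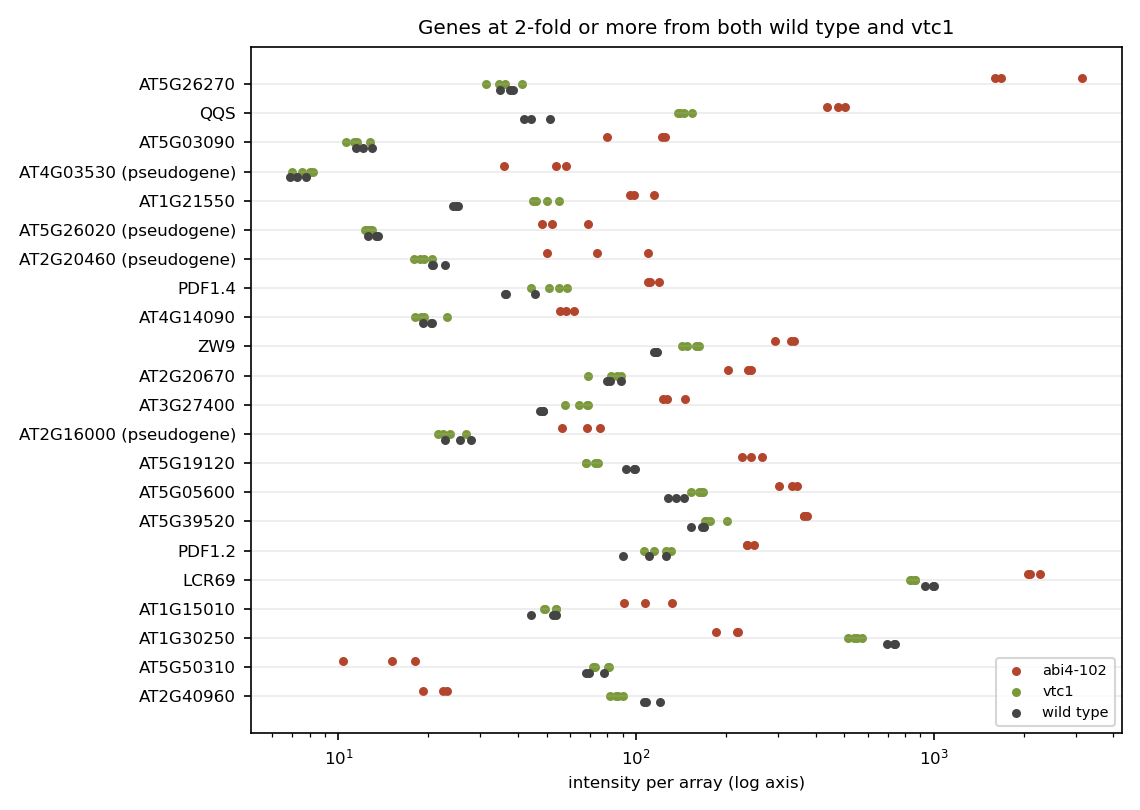
Intensity on each array, on a log axis, of the 22 genes at 2-fold or more from both vtc1 and wild type, with abi4-102 above, vtc1 in the middle and wild type below in each row. In 19 rows the abi4-102 points lie to the right of the others and in the bottom 3 rows to the left; the AT5G26270 points of abi4-102 lie above 1600 and those of the other lines below 42.

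Pseudogenes were mostly silent but not without change. Of 989 annotated pseudogenes, 814 were at the control level in both groups, and 40 were called higher and 22 lower (6.27%, against 34.0% of protein-coding genes). Among detected genes 25.7% of 109 pseudogenes and 47.6% of 8003 protein-coding genes were called. AT2G20460, an annotated pseudogene, measured 50.1, 73.8 and 109.5 in abi4-102, 17.9, 20.6, 19.3 and 18.8 in vtc1 and 20.6, 22.9 and 20.8 in wild type. Its abi4-102 arrays were spread widely and all lay above the other lines. AT5G26020, another pseudogene, measured 52.1, 48.1 and 69.03 in abi4-102, 13.02, 12.8, 12.3 and 12.6 in vtc1 and 12.6, 13.4 and 13.6 in wild type, at least 3.12-fold higher than wild type (limma adjusted p = 4.1e-10). AT4G03530 measured 58.1, 36.002 and 53.9 in abi4-102, 8.04, 6.99, 8.19 and 7.56 in vtc1 and 7.24, 7.78 and 6.90 in wild type, and its probe set can take up related transcripts.

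On chromosomes 1 to 5, 28.6% to 33.4% of the measured genes were called. Shares differed more within chromosomes. In runs of 100 neighbouring measured genes, begun every 50 genes, 3% to 47% were called, with the lowest share from AT3G30610 to AT3G42320 on chromosome 3 and the highest from AT5G11640 to AT5G13950 on chromosome 5. Other low shares were 5% from AT2G07320 to AT2G11210 on chromosome 2 and 9% from AT5G28010 to AT5G34880 on chromosome 5. Detected genes were not counted per run, and over all genes 4.76% of the dimmest group were called against 53.0% of the brightest. The part of detection in these shares was not tested. ABI4 lies on chromosome 2, and among the 100 measured genes nearest to it in gene order 22 were higher and 20 lower (42%). Among the nearest 20 there were 4 higher and 4 lower (40%). At 2-fold or more only AT2G39850 (-1.01) and AT2G40960 (-2.31) fell among the 100, and none rose. None of these runs held more than 6 genes at 2-fold or more.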

How the data were processed

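The arrays measured mRNA of whole rosettes. The deposited table holds 1 linear intensity per probe set and array, as the authors made it. Background correction, summarisation and scaling are not given in the sources used here. Each intensity, as deposited, was converted here to log2(value + 1). Of 22810 probe sets, 64 controls were left out, 13513 name 1 gene, 503 several and 8730 none in the platform annotation. They cover 13356 genes, each shown by its brightest probe set. Loci were matched to RefSeq (TAIR10.1) for symbols, type, chromosome, gene order and span. No coordinates are given because the array files name no build. All columns of the deposited table were used; 0 per-sample columns were set aside.

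A linear model over all 10 arrays was fitted with limma 3.58.1 in R 4.3.3, with abi4-102 minus wild type and abi4-102 minus vtc1 as contrasts. The Benjamini-Hochberg adjustment ran over 22746 probe sets, with a threshold of 0.05. The control level of an array is its brightest Bacillus control probe set, of 27, at 15.98 to 19.8 in abi4-102 and 16.7 to 18.1 in wild type. "At least" folds compare the brighter group with that level, or with the dim gene's own value where higher. Tables were summarised in Python 3.11.15 with pandas 2.3.3 and drawn with matplotlib 3.10.9.

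The comparison and the gene lists were chosen with earlier results of these data known, and the lists were extended and trimmed by gene name, so their counts carry no test. Named genes are the largest changes without overlap, the leading called members of each list, the 10 least adjusted p between 0.5 and 1 in size and the 5 brightest in each direction. Not all of them are described above. Further members were named for their role after their values were seen. Alternatives were quantile, array median and spike-in scaling, log2(value + 16), only the 6 arrays compared, a replicate block, each array left out and, added later, removal of the trend with gene span. Data were simulated for abi4-102 against wild type over 22746 probe sets, with independent noise and 200 probe sets changed at each size. Of changes of 0.25, 30.5% were recovered, of 0.5 92.5% and of 1 100%, with 0.099% false calls. In the data 34.9% of probe sets were called, a far larger share than was changed here, so these rates need not hold there.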

Additional observations from a re-analysis of the deposited data

How the results depend on the processing

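Under each alternative normalization, offset, filter and set of arrays run on it, the count of called probe sets, 7928 as reported, kept within 1.5 times of that value. It ranged from 7060 to 7379 with 1 array left out and was 7611 with the replicate block. At 2-fold or more, 323 probe sets were called (247 higher, 76 lower), 192 with log2(value + 16) (142 higher, 50 lower), a setting that shrinks changes of dim genes, 326 to 339 with 1 array left out and 323 with the block. Against vtc1, 8872 probe sets were called, 7800 to 8388 with 1 array left out and 7971 with the block. The share of calls that were higher than wild type was 54.0% as deposited, 48.4% with quantile normalization and 62.1% with spike-in scaling. Against vtc1 it was 54.3% as deposited and 13.3% with spike-in scaling (1317 higher, 8604 lower), where the median over probe sets stood at -0.18 (log2), against 0.021 as deposited. Called genes numbered 3775 to 3945 with 1 array left out (4264 as reported) and 4101 with the block. Called members of the families numbered 430, and 378 to 393 with 1 array left out, 417 with the block, 345 with the length trend removed and 331 with spike-in scaling. Of 341 genes named by the rule, 315 to 326 stayed called with 1 array left out and 335 with the block; 266 were called in every setting run. With the length trend removed the changes of LTA3 (0.035), MAC3B (0.0013), NET1B (0.011), NRPA2 (0.0093), TIC (0.0028) and XIH (0.027) moved from below 0 to just above it. That of LTI30 (-0.010) moved from above 0 to just below it. None of these genes was then called (limma adjusted p of 0.64 to 0.99). Of the genes named by the rule, 3 changed sign in this way, and the others are further family members. The replicate numbers share no label that pairs them, and deviations of same-numbered abi4-102 and wild-type arrays correlated at 0.041, -0.038 and -0.016. Dim genes limit these data, with 4571 genes at the control level in both groups.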
